A study of Mus musculus with 8 samples.

Results

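The 39 genes described here are markers and working parts of Kupffer cells, the resident macrophages of the liver, and of macrophages in general. They were found as every probe that the array annotation assigns to a list of 39 gene symbols or their older names. The older name Emr1 of Adgre1 added no probe. The annotation gave 57 probes for 36 of the 39 genes, among 25697 probes with an ID and 16593 named genes on the array. The remaining 3 genes, Cd68, Csf1r and Mpeg1, had no named probe and were not analysed here.

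Kupffer cells line the liver sinusoids, where they clear bacteria, aged blood cells and debris from portal blood. They depend on signals through the receptor CSF1R and on the transcription factor PU.1, the product of Spi1. They carry surface proteins such as CLEC4F, VSIG4 and TIMD4. They take up particles through scavenger and Fc receptors, secrete the complement subunits of C1q, and digest what they engulf in lysosomes.

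Total RNA of bulk liver was measured in 4 Cic-L-/- samples and in 4 wildtype samples, each on its own single-colour Illumina bead array. Cic encodes capicua, a transcriptional repressor, and the study's title places the question in its role in metabolism. All 8 samples came from C57BL mice aged 18 days, and the design text describes the comparison as mutant liver against normal liver. The labels do not say how the allele was made or whether replicates 1 to 4 are separate animals, so that the p-values reflect only how these samples vary, and that variation may be technical. In bulk tissue, more cells of a type and more RNA per cell cannot be told apart.

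Each array had 38.7% to 43.5% of its probes above background. Rows without a probe ID, which serve as its gauge, had a median signal of 138.5 to 141.9 in the 4 Cic-L-/- samples, against 114.2 to 136.3 in the 4 wildtype samples. The single Cic probe was above background on none of the 8 arrays, and where it lies relative to the deleted part is not known here, so it does not check the labels. On the first principal component of all tested features, which took 42.5% of the variance, Cic-L-/- replicates 1 and 2 lay at -26.6 and -26.1, replicates 3 and 4 at -14.8 and -12.9, and the wildtype arrays between 17.9 and 23.4. The calls below are therefore also given, further on, for the arrays without Cic-L-/- replicates 1 and 2.

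Of the 36 genes with a probe, 29 could be tested, because at least 1 of their probes was above background (a detection p under 0.05) on 4 or more arrays. Of these 29, 11 rose in Cic-L-/- liver and 0 fell (limma, adjusted p under 0.05 over all 8255 features tested). The 11 were Marco, Adgre1, C1qc, Cd53, Coro1a, Fcer1g, Folr2, Lgals3, Cyba, Laptm5 and Lst1. They make up 37.9% of the tested members, where 4.49% of all features were called higher and 2.9% lower, 7.39% in all. For 12 of the 29 (41.4%) every Cic-L-/- value lay above every wildtype value, against 8.53% of all features, and for 0 of the 29 every Cic-L-/- value lay below, against 6.55%. At an unadjusted p under 0.05, 17 members were higher and 0 lower, where 12.6% of all features were higher and 22.5% passed in either direction. Their folds ran from 1.71 to 5.93, and 7 of the 11 were at least 2-fold. Without background correction the same 11 folds ran from 1.28 to 2.40. Without the detection filter Marco, Cd53, Laptm5 and Lgals3 did not pass (adjusted p = 0.0501 to 0.0782). The difference was positive for 27 of the 29, and 50.4% of all features had a positive sign. The median log2 difference of the tested members was 0.72, against 0.00 for all features. A filter on brightness can favour genes that are high in 1 group. Of the 29, 23 were above background on all 8 arrays, and 10 of the risen genes, all but Marco, are among these 23. Among all 6560 such features, 4.31% were called higher.

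**Figure D1:**
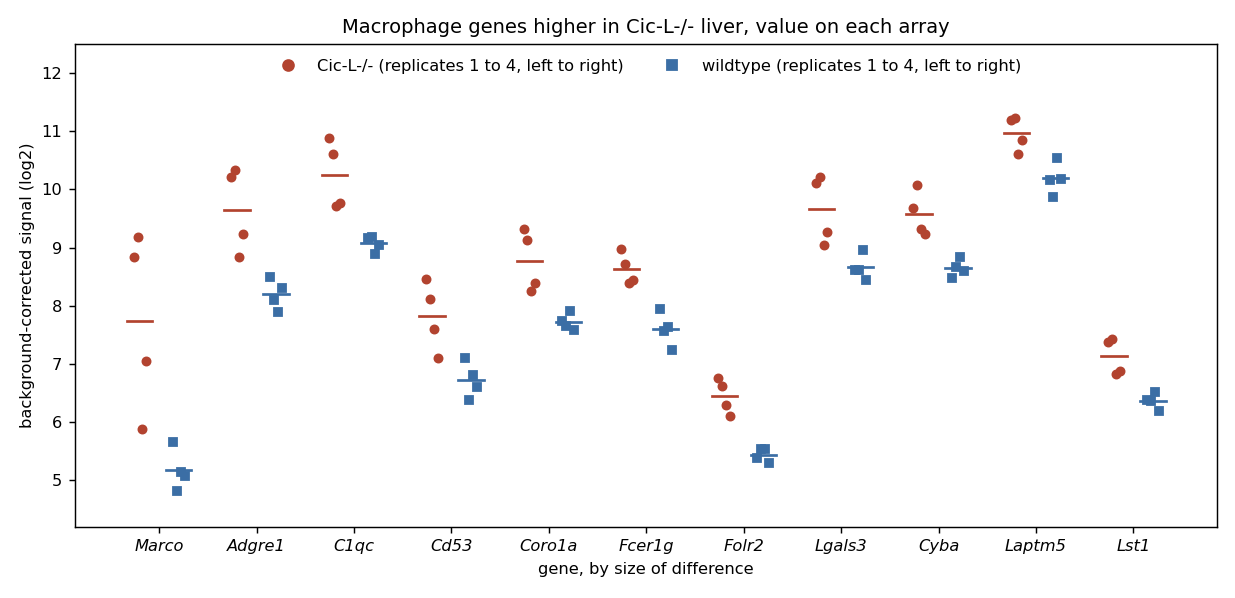
Background-corrected log2 signal (vertical axis) of the 11 risen macrophage genes (horizontal axis, largest difference first) on each array, with Cic-L-/- arrays as circles and wildtype arrays as squares, and lines at the group means (n = 4 each). For all 11, Cic-L-/- replicates 1 and 2, the leftmost 2 circles, are the 2 highest of the 4 Cic-L-/- values, and only the Cd53 values of the groups overlap.

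Among the 7 genes that mark Kupffer cell identity, 2 of 6 tested rose. Adgre1, which encodes a surface antigen used to stain mouse macrophages, had log2 signals, corrected for background and quantile normalised, of 10.21, 10.34, 8.84 and 9.23 on the Cic-L-/- arrays, against 8.49, 8.10, 7.90 and 8.30 on the wildtype arrays. All 4 Cic-L-/- values lay above all wildtype values, with replicates 1 and 2 furthest from them. The difference was 1.46 ± 0.31 on the log2 scale (SE, n = 4 each), a 2.74-fold rise (limma, adjusted p = 0.0156). Leaving out Cic-L-/- replicate 1 raised the adjusted p to 0.0526. A second Adgre1 probe, tested as a feature of its own, differed by 0.76 ± 0.25 (adjusted p = 0.106 over all kept probes), and its Cic-L-/- replicate 4 (7.34) lay within the wildtype range of 7.24 to 7.61.

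Folr2, a folate receptor of tissue-resident macrophages, had log2 signals of 6.77, 6.62, 6.29 and 6.10 on the Cic-L-/- arrays, against 5.39, 5.54, 5.53 and 5.29 on the wildtype arrays. The groups did not overlap and the Cic-L-/- values lay closer together than those of Adgre1. The rise was 2.01-fold (log2 difference 1.01 ± 0.17 SE, adjusted p = 0.00564), the smallest adjusted p among the 29 members. Without background correction it was 1.28-fold (adjusted p = 0.0213).

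The other 4 tested identity genes did not pass. Clec4f, a lectin found in mice on Kupffer cells alone among macrophages, had log2 signals of 9.94, 10.12, 9.83 and 9.87 on the Cic-L-/- arrays, against 9.59, 9.78, 9.64 and 9.75 on the wildtype arrays. Its groups did not overlap, yet the difference was small, at 0.25 ± 0.14 (adjusted p = 0.308). A dimmer Clec4f probe, tested as a feature of its own, differed by 0.39 ± 0.23 (adjusted p = 0.373 over all kept probes). On that probe the groups overlapped, with Cic-L-/- replicate 2 (5.88) within the wildtype range of 5.33 to 6.25. Vsig4, a complement receptor that captures opsonised bacteria, had 11.10, 11.18, 10.19 and 9.92 on the Cic-L-/- arrays, against 10.02, 10.25, 9.88 and 10.07 on the wildtype arrays. Its Cic-L-/- replicates 1 and 2 stood above every wildtype value, while replicates 3 and 4 lay within the wildtype range, and the difference of 0.54 ± 0.27 did not pass (adjusted p = 0.255). Timd4, a phosphatidylserine receptor for dying cells, differed by 0.69 ± 0.36 (adjusted p = 0.283). Hpgd, which breaks down prostaglandins and is also made outside macrophages, differed by -0.30 ± 0.17 (adjusted p = 0.322). Cd5l, which encodes a secreted scavenger protein of tissue macrophages, was above background on none of the 8 arrays. As a check of the label, the brightest probes of Adgre1, Clec4f, Vsig4, Folr2 and Hpgd were above background on all 8 arrays. Timd4 was above background on 4 Cic-L-/- and 3 wildtype arrays. An Adgre1 probe too dim to be kept was above background on 1 Cic-L-/- and 0 wildtype arrays. The identity genes therefore check the label only in part.

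Marco, a scavenger receptor that binds bacteria, showed the largest difference of the 29 members. Its log2 signals were 8.84, 9.19, 5.88 and 7.04 on the Cic-L-/- arrays, against 5.66, 4.81, 5.14 and 5.07 on the wildtype arrays. The Cic-L-/- values spread widely, with replicate 3 close to wildtype replicate 1. Marco met the detection filter through the 4 Cic-L-/- arrays, the group where it was high. The difference of 2.57 ± 0.59 corresponds to 5.93-fold (adjusted p = 0.0232), a fold that is approximate since Marco was above background on 1 wildtype array only. Without background correction the difference was 1.26 (2.40-fold) and did not pass (adjusted p = 0.0528), and with an offset of 50 the fold was 3.72. Marco also no longer passed when any single one of Cic-L-/- replicates 1 and 2 and wildtype replicates 2, 3 and 4 was left out (highest adjusted p = 0.0731). With only probes above background on all 8 arrays, Marco was not tested. In that fit 11 members rose, with Aif1 (limma, adjusted p = 0.0469) in place of Marco.

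The other receptors of this kind did not pass. Cd14, the co-receptor for lipopolysaccharide, had log2 signals of 6.72, 6.50, 5.33 and 6.57 on the Cic-L-/- arrays, against 5.57, 5.65, 5.59 and 5.997 on the wildtype arrays. Cic-L-/- replicate 3 lay below the wildtype values and the other Cic-L-/- values above them, and the difference was 0.58 ± 0.27 (adjusted p = 0.234). Without Cic-L-/- replicate 3 it was 0.90 (adjusted p = 0.0124). Cd163, the receptor for haemoglobin bound to haptoglobin, differed by 0.06 ± 0.33 (adjusted p = 0.937) and was above background on 3 Cic-L-/- and 1 wildtype arrays. The Msr1 probe, for scavenger receptor A, exceeded background nowhere.

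C1q, which starts the classical complement pathway, is built from the products of C1qa, C1qb and C1qc, and in the liver it comes mainly from macrophages. C1qc had log2 signals of 10.89, 10.62, 9.72 and 9.77 on the Cic-L-/- arrays, against 9.16, 9.19, 8.89 and 9.04 on the wildtype arrays. The groups did not overlap, and the rise was 2.26-fold (1.18 ± 0.25 SE, adjusted p = 0.0166). C1qb had 10.50, 10.41, 9.07 and 9.36 on the Cic-L-/- arrays, against 9.16, 8.52, 8.999 and 8.59 on the wildtype arrays. Here Cic-L-/- replicate 3 lay within the wildtype range, and the difference of 1.02 ± 0.31 did not pass (adjusted p = 0.0723). C1qb did pass by limma with an offset of 50 (adjusted p = 0.039), with median centring (0.0495) and without Cic-L-/- replicate 3 (0.0268). C1qa differed by 0.72 ± 0.30 (adjusted p = 0.185). All 3 subunit genes had an unadjusted p under 0.05, and 1 of 3 passed after adjustment over all features. C1qc no longer passed once Cic-L-/- replicate 2 was left out (adjusted p = 0.0531).

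Of the immune receptors and their signalling adaptors, 1 of 3 tested genes rose. Fcer1g encodes the common gamma chain, through which Fc receptors signal by their ITAM motif. Its log2 signals were 8.97, 8.72, 8.39 and 8.45 on the Cic-L-/- arrays, against 7.94, 7.57, 7.63 and 7.24 on the wildtype arrays. All Cic-L-/- values exceeded all wildtype values, a 2.05-fold rise (1.04 ± 0.19 SE, adjusted p = 0.00777). Tyrobp, the DAP12 adaptor used by TREM2 and other receptors, differed by 0.51 ± 0.38 (adjusted p = 0.476), and the low-affinity receptor Fcgr3 by 0.24 ± 0.24 (adjusted p = 0.6). Tyrobp was above background on 3 Cic-L-/- and 2 wildtype arrays, Fcgr3 on 3 and 1, and Trem2 on 0 of 8.

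Membrane proteins shared by many leukocytes gave 3 rises among 4 tested genes. Laptm5, a lysosomal membrane protein of blood cells, had log2 signals of 11.19, 11.23, 10.60 and 10.85 on the Cic-L-/- arrays, against 10.16, 9.87, 10.54 and 10.18 on the wildtype arrays. Cd53, a tetraspanin of leukocytes, had 8.47, 8.12, 7.599 and 7.10 on the Cic-L-/- arrays, against 7.10, 6.38, 6.81 and 6.60 on the wildtype arrays. The Laptm5 groups were separated by a narrow gap, and the Cd53 groups overlapped slightly, at Cic-L-/- replicate 4 and wildtype replicate 1. The folds were 1.72 for Laptm5 (adjusted p = 0.0315) and 2.14 for Cd53 (adjusted p = 0.0328). Lst1, a small transmembrane protein of myeloid cells, had 7.38, 7.43, 6.82 and 6.88 on the Cic-L-/- arrays, against 6.38, 6.36, 6.51 and 6.19 on the wildtype arrays. Its groups did not overlap, with a 1.71-fold rise (adjusted p = 0.0236). Ms4a7, a macrophage member of the MS4A family, differed by 0.37 ± 0.22 (adjusted p = 0.363). Of 2 probes for Ptprc, the pan-leukocyte CD45 phosphatase, 1 was above background on 2 Cic-L-/- and 1 wildtype arrays and the other nowhere, so that Ptprc was not tested. All 3 calls were lost when any single one of Cic-L-/- replicates 1 and 2 and wildtype replicates 2 and 4 was left out, those of Laptm5 and Lst1 also without wildtype replicate 1, and that of Cd53 also without wildtype replicate 3 (highest adjusted p = 0.0925 for Laptm5, 0.0738 for Lst1 and 0.0936 for Cd53).

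In the lysosome and phagosome group, 1 of 6 tested genes rose and all 6 had a positive sign. Cyba, the p22phox subunit of the phagocyte NADPH oxidase that is also made in other cells, had log2 signals of 9.68, 10.07, 9.33 and 9.23 on the Cic-L-/- arrays, against 8.48, 8.66, 8.84 and 8.60 on the wildtype arrays. The groups did not overlap, and the rise was 1.91-fold (0.93 ± 0.19 SE, adjusted p = 0.0148). Cybb, the catalytic subunit of the same oxidase, was above background on no array. Slc11a1, the metal transporter NRAMP1 of phagosomes, had 10.61, 10.63, 10.21 and 10.06 on the Cic-L-/- arrays, against 9.90, 9.92, 9.76 and 9.64 on the wildtype arrays. These groups did not overlap either, but the difference of 0.57 ± 0.17 missed the threshold (adjusted p = 0.0656). A dimmer Slc11a1 probe, tested as a feature of its own, passed (0.89 ± 0.22, adjusted p = 0.0327 over all kept probes).

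Lyz2, the macrophage lysozyme, had log2 signals of 10.76, 10.59, 8.82 and 8.72 on the Cic-L-/- arrays, against 8.96, 8.90, 9.28 and 9.11 on the wildtype arrays. On this probe only Cic-L-/- replicates 1 and 2 stood above wildtype, and replicates 3 and 4 lay below every wildtype value. The difference was 0.66 ± 0.42 (adjusted p = 0.394). A second Lyz2 probe, tested as a feature of its own, differed by 0.60 ± 0.43 (adjusted p = 0.462 over all kept probes). There, replicates 3 and 4 (6.73 and 7.45) lay within the wildtype range of 6.68 to 7.91. Lyz1, the close copy of Lyz2, differed by 0.73 ± 0.29 (adjusted p = 0.16), and probes of this pair may bind transcripts of both. The cysteine proteases Ctss, which trims the MHC class II invariant chain, and Ctsb, which most cells make, differed by 0.73 ± 0.32 (adjusted p = 0.2) and 0.13 ± 0.19 (adjusted p = 0.743). Gpnmb, a glycoprotein of lipid-laden macrophages, had 4 probes, none above background on more than 2 arrays.

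Of the remaining members, Coro1a and Lgals3 rose. Coro1a, an actin-binding protein of leukocytes, had log2 signals of 9.31, 9.13, 8.26 and 8.40 on the Cic-L-/- arrays, against 7.74, 7.65, 7.90 and 7.58 on the wildtype arrays. The groups did not overlap (2.08-fold, 1.06 ± 0.23 SE, adjusted p = 0.019), and a second probe differed by 1.15 ± 0.23 (adjusted p = 0.0149 over all kept probes). Lgals3, the secreted lectin galectin-3, had 10.11, 10.21, 9.05 and 9.26 on the Cic-L-/- arrays, against 8.62, 8.62, 8.96 and 8.44 on the wildtype arrays. Cic-L-/- replicate 3 came close to wildtype replicate 3, and the rise was 1.995-fold (adjusted p = 0.039). Aif1, the macrophage protein IBA1, had 7.07, 7.30, 6.70 and 7.24 on the Cic-L-/- arrays, against 6.54, 6.22, 6.41 and 6.72 on the wildtype arrays. Its groups overlapped at Cic-L-/- replicate 3 and wildtype replicate 4, and the difference of 0.61 ± 0.18 did not pass (adjusted p = 0.0608). A dimmer Aif1 probe differed by 0.71 ± 0.26 and did not pass either (adjusted p = 0.138 over all kept probes). Il18bp, a secreted inhibitor of interleukin-18, differed by -0.05 ± 0.14 (adjusted p = 0.876). Spi1 was above background on 1 Cic-L-/- and 0 wildtype arrays. Coro1a no longer passed after wildtype replicate 4 or either of Cic-L-/- replicates 1 and 2 was removed (highest adjusted p = 0.0595). Lgals3 kept its call only when the array left out was wildtype replicate 3 or one of Cic-L-/- replicates 3 and 4 (highest adjusted p = 0.111).

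**Figure D2:**
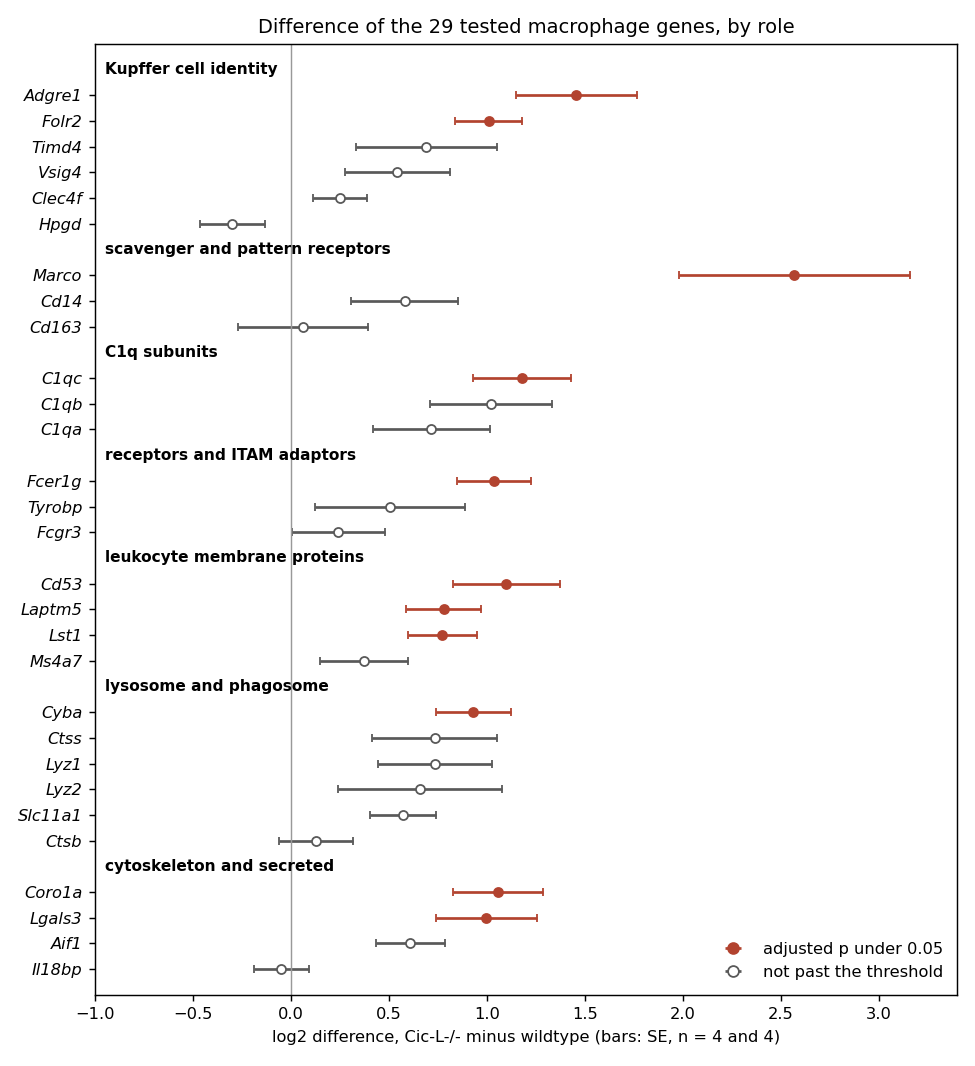
Log2 difference, Cic-L-/- minus wildtype (horizontal axis), of the 29 tested macrophage genes grouped by role, with bars for the standard error (n = 4 each) and filled points for genes past an adjusted p of 0.05. Points lie right of 0 for 27 genes and left of it for Hpgd and Il18bp, and filled points occur in each of the 7 role groups.

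The 7 genes with dim probes only were Cd5l, Msr1, Trem2, Ptprc, Cybb, Gpnmb and Spi1. A dim probe does not show that a gene is silent: the probe of the hepatocyte gene Fgb, which encodes a fibrinogen chain, was also above background on none of the 8 arrays.

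RefSeq promoters (assembly GRCm38.p6) were matched by symbol for 30 of the 39 genes, with 35 start sites in all. The 250 bases before each start were searched on both strands for GAGGAA, a core of the PU box bound by PU.1, and for TGAATGAA and TGAATGGA, octamers bound by CIC. GAGGAA occurred in 16 of the 35 member promoters (45.7%), against 23.3% of all 32851 promoters in the table. Starts of 1 gene are not independent: the windows of the Fcgr3 starts overlap and hold the same match, counted at each. By gene, GAGGAA was present for 15 of the 30. It was present for 4 of the 9 risen genes with a promoter and for 7 of the 14 genes that were tested and did not pass. A CIC octamer occurred in 1 of the 35, against 2.07% of all promoters. A match describes these letters only, and no binding was measured here. The 4 risen genes with GAGGAA and the risen gene with a CIC octamer, at the second of its starts, are shown 5′ to 3′, ending at the base before the start, with the matched letters of either strand in capitals. In no promoter shown do the motifs overlap.
Marco (chr1:120505025-120505274, minus strand): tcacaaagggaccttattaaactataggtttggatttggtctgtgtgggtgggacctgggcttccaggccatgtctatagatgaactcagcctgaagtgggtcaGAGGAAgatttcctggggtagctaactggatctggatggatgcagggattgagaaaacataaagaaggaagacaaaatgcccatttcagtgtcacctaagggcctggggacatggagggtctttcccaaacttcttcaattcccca
C1qc (chr4:136892915-136893164, minus strand): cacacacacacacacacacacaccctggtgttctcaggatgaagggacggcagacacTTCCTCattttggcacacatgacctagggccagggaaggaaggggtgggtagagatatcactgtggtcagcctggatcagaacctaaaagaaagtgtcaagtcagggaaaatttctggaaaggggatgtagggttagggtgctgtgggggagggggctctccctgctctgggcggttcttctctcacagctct
Laptm5 (chr4:130913066-130913315, plus strand): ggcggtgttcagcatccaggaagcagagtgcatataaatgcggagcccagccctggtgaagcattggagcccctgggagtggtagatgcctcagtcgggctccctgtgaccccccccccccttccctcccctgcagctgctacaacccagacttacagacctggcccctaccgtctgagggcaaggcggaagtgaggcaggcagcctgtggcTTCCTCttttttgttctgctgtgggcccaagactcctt
Cd53 (chr3:106790150-106790399, minus strand): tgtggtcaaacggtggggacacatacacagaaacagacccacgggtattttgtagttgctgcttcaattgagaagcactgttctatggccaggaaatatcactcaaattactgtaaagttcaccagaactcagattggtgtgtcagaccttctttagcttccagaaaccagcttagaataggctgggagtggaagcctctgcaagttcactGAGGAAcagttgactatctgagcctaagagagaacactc
Folr2, second start (chr7:101845332-101845581, minus strand): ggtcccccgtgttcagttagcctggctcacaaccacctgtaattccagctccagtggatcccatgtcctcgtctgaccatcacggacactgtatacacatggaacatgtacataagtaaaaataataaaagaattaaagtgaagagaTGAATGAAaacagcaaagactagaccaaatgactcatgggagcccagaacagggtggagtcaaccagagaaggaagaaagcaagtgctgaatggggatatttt

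The members did not move evenly across the Cic-L-/- arrays. Relative to the wildtype mean of each gene, the median over the 29 tested members was 1.05, 1.12, 0.39 and 0.38 on Cic-L-/- replicates 1 to 4, against 0.01, 0.00, 0.07 and -0.07 on wildtype replicates 1 to 4. Replicates 1 and 2 exceeded every wildtype value for 25 and 26 of the 29 genes, and replicates 3 and 4 for 16 each. Replicates 1 and 2 were the 2 highest of the 4 Cic-L-/- values for 22 of 29 members (75.9%) and for all 11 risen ones, where this order held for 20.8% of all features. Features called higher were not counted on their own. On the first principal component of all features, replicates 1 and 2 also lay furthest from wildtype. The order is therefore not shown to be particular to the members. Of the called genes in the other lists below, it held for Spic, Lgmn, Axl, Ly86, Fcgr4, Plac8, S100a8, Cd74 and H2-Ab1. It did not hold for Cd63, Chil3, S100a9, Ltf, Cd79a and Tie1. The members spread more widely among Cic-L-/- arrays: the SD within Cic-L-/- exceeded that within wildtype for 27 of 29 members and for 53.6% of all features. The median SD of the members was 0.52 among Cic-L-/- arrays, against 0.22 among wildtype arrays, where that of all features was 0.25 and 0.24.

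**Figure D3:**
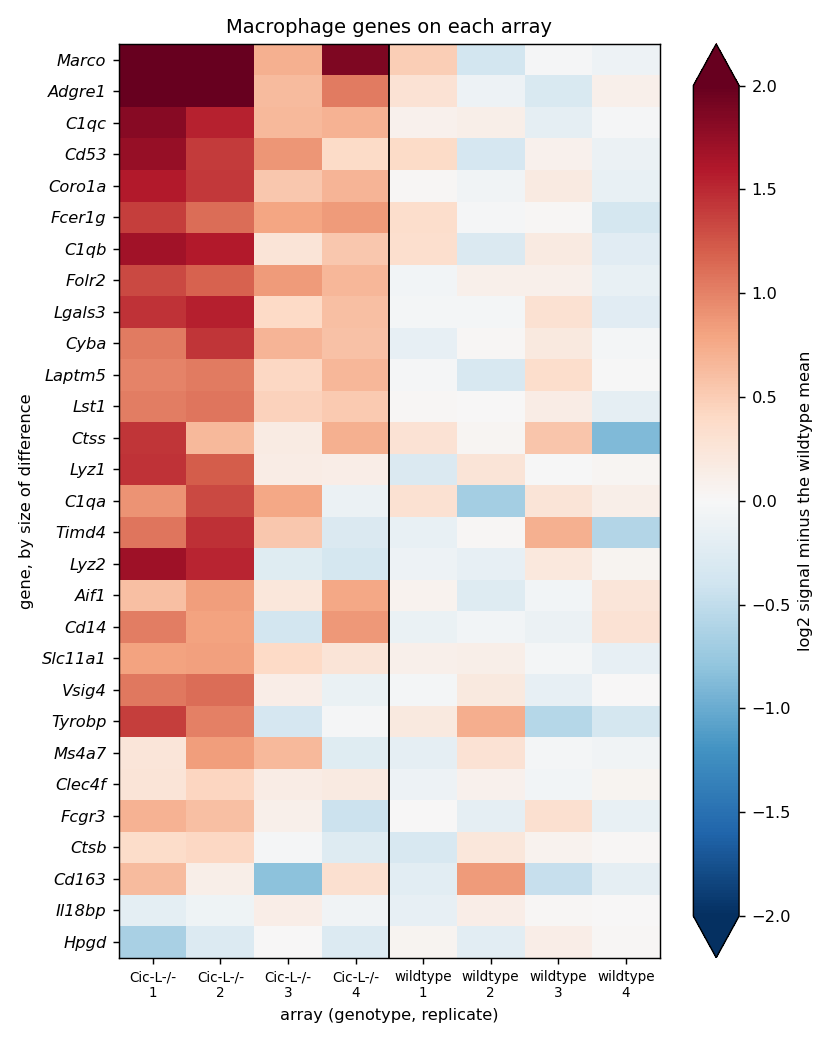
Log2 signal minus the gene's wildtype mean (colour, capped at 2 in either direction) for the 29 tested macrophage genes (rows, largest difference first) on each array (columns, 4 Cic-L-/- left of the line and 4 wildtype right of it). The columns of Cic-L-/- replicates 1 and 2 are red in most rows, and those of replicates 3 and 4 are paler, with Lyz2 and Tyrobp below or near the wildtype mean.

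Without Cic-L-/- replicates 1 and 2, a choice made after seeing the data, the risen members numbered 0 (limma, adjusted p under 0.05), where 0.812% of all features were called higher. At an unadjusted p under 0.05, 12 members were higher and 0 lower, where 9.42% of all features were higher. With 2 Cic-L-/- arrays left, the differences of the 11 genes were 0.49 to 1.29, all positive, with adjusted p of at least 0.0708 (Folr2). Adgre1 differed by 0.84, Fcer1g by 0.82, Folr2 by 0.76, C1qc by 0.68 and Cyba by 0.63. Vsig4 differed by -0.00, Lyz2 by -0.29 and Tyrobp by -0.18, and 22 of the 29 members had a positive sign. Leaving out 1 array at a time, the risen members numbered 4 without Cic-L-/- replicate 1, 4 without replicate 2, 6 without wildtype replicate 2, 5 without wildtype replicate 4, and 8 to 14 without any other. Folr2, Fcer1g and Cyba passed in all 8 of these fits.

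**Figure D4:**
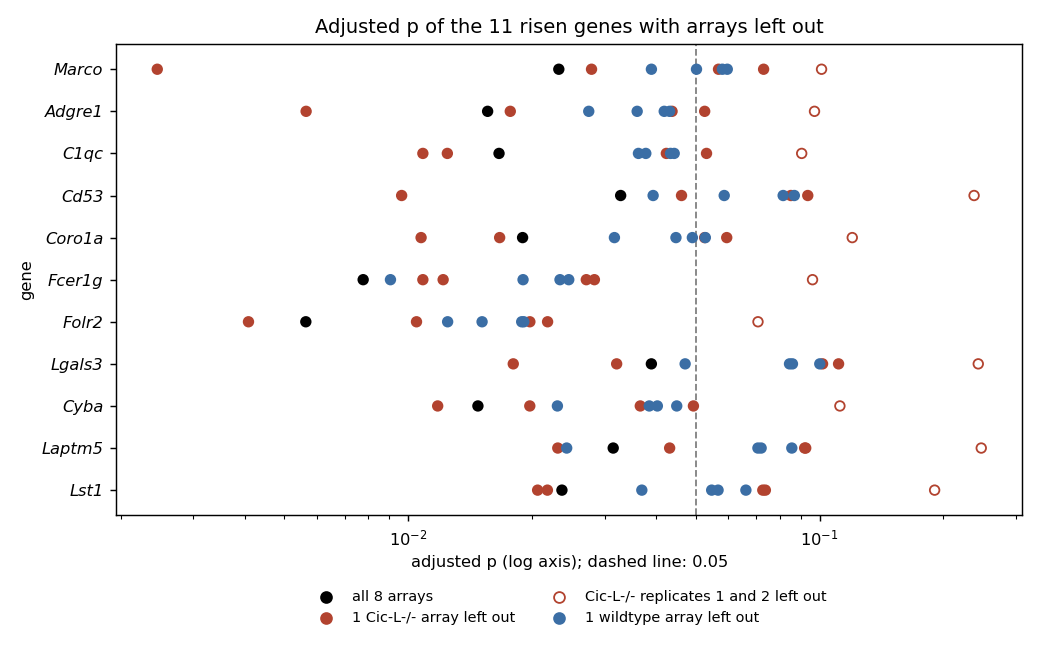
Adjusted p (horizontal log axis, dashed line at 0.05) of the 11 risen macrophage genes with all 8 arrays, with 1 array left out and with Cic-L-/- replicates 1 and 2 left out. For Folr2, Fcer1g and Cyba every filled point lies left of the line, and the open points of all 11 genes lie right of it.

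Of 42 other genes of macrophage function, listed beside the members, 28 were tested, 6 rose and 0 fell. Of all features, 4.49% were called higher and 2.9% lower. At an unadjusted p under 0.05, 7 of the 28 were higher and 2 lower, where 12.6% of all features were higher and 22.5% passed in either direction. The list's median log2 difference was 0.28. Spic, a transcription factor of iron-recycling macrophages, rose 2.16-fold (adjusted p = 0.00747), or 1.35-fold without background correction. The lysosomal protease Lgmn rose 2.06-fold (adjusted p = 0.0211), the TAM receptor Axl 1.67-fold (adjusted p = 0.0216) and the tetraspanin Cd63 2.11-fold (adjusted p = 0.0335). The remaining rises were those of Ly86 and Fcgr4, named after their values were seen. For all 6 the groups did not overlap, and Lgmn, Axl and Cd63 are also made outside macrophages. Spic alone of the 6 passed with any 1 array left out. Among those that did not pass, 4 were named for their roles after their values were seen: Nr1h3, which encodes the liver X receptor LXR alpha of Kupffer cells (0.01 ± 0.16, adjusted p = 0.981), the Fc receptor Fcgr1 (-0.05 ± 0.24, adjusted p = 0.936), the iron exporter Slc40a1 (0.09 ± 0.13, adjusted p = 0.748) and Mertk (0.14 ± 0.18, adjusted p = 0.687).

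Genes of other blood cells also rose, and their part in the result was not tested. The counts below can be set beside the 4.49% of all features called higher. Of 10 tested neutrophil genes 3 rose, led by S100a9 (2.28-fold, adjusted p = 0.0028), Ltf (1.72-fold, adjusted p = 0.0123) and S100a8 (1.71-fold, adjusted p = 0.031). S100a9 had log2 signals of 9.27, 8.94, 8.64 and 9.14 on the Cic-L-/- arrays, against 7.48, 7.87, 7.89 and 7.998 on the wildtype arrays. All 4 Cic-L-/- arrays were high. The summed linear signal of the 10 was 4059 to 7534 on Cic-L-/- arrays, against 2906 to 3392 on the wildtype arrays. S100a8 and Lcn2 had the highest means of the 10 and weigh most in the sum. Lcn2, named after its values were seen, lay below wildtype (9.27 to 9.29) on Cic-L-/- replicates 3 and 4 (8.79 and 8.92), and above it on replicates 1 and 2. Of the 13 neutrophil genes with a probe, Mmp8 was above background nowhere.

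Of 3 tested monocyte genes Plac8 (1.99-fold, adjusted p = 0.0113) and Chil3 (1.65-fold, adjusted p = 0.0452) rose, with a summed signal of 545.6 to 880.1 on Cic-L-/- arrays, against 359.6 to 445.7 on the wildtype arrays. The defining monocyte gene Ccr2 was above background nowhere. Of 5 tested dendritic cell and MHC class II genes, Cd74 (2.41-fold, adjusted p = 0.017) and H2-Ab1 (1.97-fold, adjusted p = 0.0339) rose. Their sum was 1869 to 3457 on Cic-L-/- arrays, against 1012 to 1600 on the wildtype arrays, while Itgax, Flt3, Xcr1 and Clec9a, which mark dendritic cells, exceeded background nowhere. Macrophages and B cells also express the MHC class II genes. Of 5 tested lymphocyte genes the B cell gene Cd79a rose (1.71-fold, adjusted p = 0.0375), a call lost without background correction (adjusted p = 0.0647), with a sum of 322.4 to 505.3 on Cic-L-/- arrays, against 257.6 to 327.2 on the wildtype arrays, and Cd4, Cd8a, Gzma, Gzmb and Ncr1 were above background nowhere.

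In the lists of other liver cells, 1 gene was called. Of 14 tested endothelial genes Tie1 rose (1.98-fold, adjusted p = 0.0274), 4 were higher at an unadjusted p under 0.05, and the list median was 0.28. Of all features, 4.49% were called higher and 12.6% were higher at that unadjusted p. Without background correction Tie1 differed 1.27-fold and did not pass (adjusted p = 0.0505). By limma, 0 of 5 erythroid, 0 of 9 stellate and 0 of 10 hepatocyte genes were called, where 7.39% of all features were called. In these lists 0, 2 and 2 genes had an unadjusted p under 0.05, where 22.5% of all features did. The medians of the 3 lists were 0.02, -0.00 and -0.09. Without background correction, 1 hepatocyte gene was called. Some hepatocyte probes, named after their values were seen, could hardly show a change. Ahsg and Serpina1b shared the same few log2 values near the top of the range (15.66 to 15.92), and Alb was dim (4.70 to 6.48). The 0 calls therefore do not show that these genes stayed level. Of the bile duct genes 0 could be tested. Of the 15 called genes in the lists other than the members, 1 passed without both Cic-L-/- replicates 1 and 2, namely S100a9 (adjusted p = 0.0471). The other 14 did not, with adjusted p from 0.0775 for Spic to 0.268 for H2-Ab1, among them Plac8 (0.0823), Ltf (0.085), Cd74 (0.112) and S100a8 (0.191). With 1 array left out, Spic, Plac8, S100a9 and Ltf passed in all 8 fits. The number passing was 4 without Cic-L-/- replicate 1 and 6 without replicate 2, 6 without wildtype replicate 1, 6 without wildtype replicate 2, 9 without wildtype replicate 4, and 12 or 13 otherwise. Without the detection filter 9 of the 15 passed, and Cd63, Ly86, Chil3, Cd79a, Tie1 and H2-Ab1 did not (adjusted p = 0.0541 to 0.0721).

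**Figure D5:**
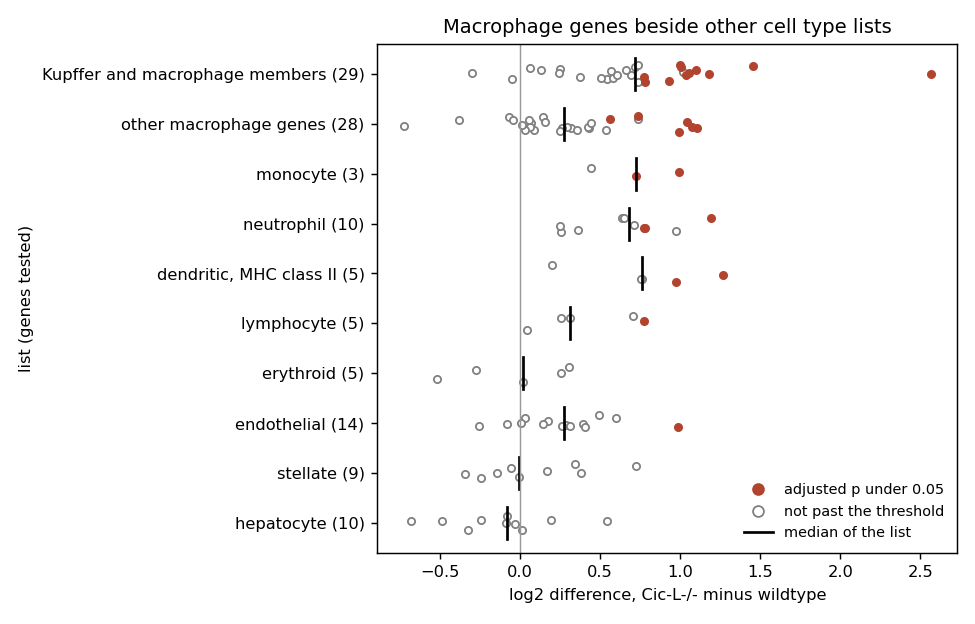
Log2 difference, Cic-L-/- minus wildtype (horizontal axis), of each tested gene in the macrophage members and in the other lists (rows, number tested in brackets), with filled points past an adjusted p of 0.05 and a black line at each list's median. The members' median is 0.72, and the medians of the neutrophil, monocyte and dendritic lists lie between 0.68 and 0.76.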

How the data were processed

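Bulk liver RNA of 8 samples was measured on Illumina bead arrays. In the deposited table of signals, the authors give linear intensity, not normalised between arrays, for 26821 rows, of which 1124 carry no probe ID. The deposited log2 table equals log2 of that intensity after quantile normalisation, to within 5e-05. For the bead summary, the software is not given in the sources used here.

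Those 1124 unnamed rows were taken as negative controls, which is a reading of their values. Intensities were corrected with normexp on these controls (limma 3.58.1, R 4.3.3, offset 16), log2 transformed and quantile normalised. A probe was kept when its detection p, the share of controls at least as bright, was under 0.05 on at least 4 arrays (10300 probes). Each gene was represented by its brightest kept probe, giving 8255 features, and groups were compared with lmFit and eBayes, two-sided, without covariates, with Benjamini-Hochberg adjustment over all features. Fold changes of dim probes may be understated because of the offset, and they depend on the background correction. That of Marco was 5.93 with it, 2.40 without it and 3.72 with an offset of 50. Array number limits the precision. In simulated data of the 8255 features, 67 of 100 features changed by 1 log2 unit and 96 of 100 changed by 2 were recovered, with 8 false calls. The simulated noise was normal, independent between arrays and equal in SD in both groups. The members' median SD was 0.52 among Cic-L-/- arrays and 0.22 among wildtype arrays, so these rates may not hold for the members. The fit itself also takes 1 variance per gene for both groups. The members' standard errors and adjusted p therefore carry the same limit.

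Gene symbols came from the platform annotation (23978 probes with 1 symbol, 1719 without). The members, their roles and the other lists were chosen with earlier results of these data known. All members are named, and of each other list up to 4 genes with the smallest adjusted p, unless said otherwise. Alternatives changed the background correction, offset, normalisation, filter, probe choice, variance model, replicate block and arrays.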

Additional observations from a re-analysis of the deposited data

Results flagged for a closer look

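Of 58 groups of 4 values checked (29 tested genes in 2 genotypes), 1 held an array far from the rest, where chance marks about 1 in 20. This was Cd14 in Cic-L-/- liver. Replicate 3 had a log2 signal of 5.33, and the other 3 Cic-L-/- arrays had 6.50 to 6.72, a gap of 0.842 of the group's range, above Dixon's critical value for 4 samples.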

How the results depend on the processing

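The risen members numbered 11 of 29 with all arrays, and 4 to 14 with 1 array left out, while the number of all features called was 610 with all arrays and 326 to 628 with 1 left out. Without both Cic-L-/- replicates 1 and 2, chosen after seeing the data, 148 features and 0 members were called (12 members at an unadjusted p under 0.05). That fit has fewer arrays, and the cause was not tested. Without the detection filter, 18312 features were tested and 7 members rose. The remaining 7 settings gave 9 to 14 risen members, and 0 members fell under any setting. Median centring raised the median of all features to 0.17, with 84.3% of calls higher in place of 60.8%, and that of the members to 0.87. Of 487 values of single members under the alternatives, 413 kept direction and call, 48 lost a call, 13 gained one and 13 changed sign. The gained calls were those of Slc11a1 under 5 alternatives, C1qb and Aif1 under 3 each, and Cd14 and C1qa under 1 each. No called member changed sign. Cd163 (0.06 with all arrays) had -0.0026 without background correction and -0.13 to 0.36 with 1 array left out, negative when wildtype replicate 1 (-0.0078) or 3 (-0.09) or, of the Cic-L-/- arrays, replicate 1 (-0.13) or 4 (-0.02) was dropped. Il18bp had 0.20 with median centring. Without both Cic-L-/- replicates 1 and 2, the sign changed for Vsig4 (-4.4e-05), Cd163 (-0.26), Fcgr3 (-0.16), Tyrobp (-0.18), Lyz2 (-0.29), Ctsb (-0.14) and Il18bp (0.035). The labels do not say that replicate numbers pair the samples. The correlations of same-numbered arrays over genes were -0.03 to 0.05, and 1 of 4 was closest to its own number. With so few arrays, these values do not settle whether the samples are paired. With the replicate number as a block, 9 members rose, and Laptm5 (adjusted p = 0.078) and Lgals3 (0.0556) did not pass. Marco did not pass without background correction (adjusted p = 0.0528) or without the filter (0.0605), nor did Cd53 (0.0689), Laptm5 (0.0501) and Lgals3 (0.0782) without the filter. Of the 15 called genes of other lists, 13 passed without background correction, 14 with every kept probe and 9 with the block. Members with dim probes limit the account: 7 of 36 could not be tested.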
